A study of Mus musculus with 10 samples.

Results

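Interferon-stimulated genes were examined in mouse embryonic fibroblasts of a line labelled hsp70 (-/-) and a line labelled (+/+) rescue, each either preshocked or left unheated. The members were all probe sets annotated to Stat2, Irf1, Irf7, Irf9, Isg15, Ifit1, Ifit3, Bst2 and Oasl2. These were 10 of the 45037 non-control probe sets on the Affymetrix mouse arrays, for 9 genes. A preshock was 30 minutes at 43 °C, given 20 hours after plating, with RNA taken 3 hours later; unheated cells were harvested at 23 hours. Each sample pooled the lysates of 144 wells plated at 3000 cells per well, and 1.5 µg of its RNA was labelled for 1 array. The hsp70 (-/-) line gave 3 preshocked and 3 unheated arrays, and the rescue line gave 2 and 2. No clone, passage, interferon treatment or infection is named for any group. Separate cultures are not stated for the arrays of one group, and each p-value therefore reflects only the scatter among the arrays, which may be technical.

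The label was checked first on the targeted genes, Hspa1a and Hspa1b, which encode the heat-inducible Hsp70. Hspa1b stood at 8.0 ± 0.79 (log2 normalised intensity, SD, n = 3) in unheated and 14.81 ± 0.27 in preshocked arrays of the hsp70 (-/-) line. In the rescue line it stood at 9.08 ± 0.46 and 14.68 ± 0.16 (SD, n = 2 each), so Hspa1b signal was high after the preshock in both lines. Hspa1a was dim in all 10 arrays, at deposited intensities of 3.49 to 25.8. Whether either probe set lies within the deleted part is not known here, and the lines are therefore called KO-labelled and rescue-labelled. The arrays are named by the numbers in their labels, which run in pairs of a preshocked and an unheated array: 5 and 6, 11 and 12, and 13 and 14 in the KO-labelled line, and 31 and 32, and 43 and 44 in the rescue-labelled line. Of 11 fibroblast markers, 10 had levels high enough for testing, a cut that 60% of all genes pass. Col1a2 had deposited intensities of 10930 to 16400 and Vim of 21118 to 50033. Others of the list were dim, with Thy1 at 61.0 to 122, Pdgfra at 108 to 397 and the untested Postn at 2.79 to 188. Median intensities were 50.5 to 73.5 in 8 arrays, and 100.2 and 106.8 in arrays 5 and 6. The first principal component (35.3% of the variance) set arrays 5 and 6 apart, at -51.68 and -53.55. It also separated the lines, with arrays 11 to 14 at -6.80 to 11.89 and the rescue-labelled arrays at 21.61 to 26.42.

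Type I interferons act through a receptor whose kinases phosphorylate STAT proteins, STAT2 among them. STAT2 acts with IRF9 in the complex ISGF3, which binds the interferon-stimulated response element (ISRE) in promoters of antiviral genes, while IRF1 and IRF7 bind related elements. Embryonic fibroblasts are a classical cell for assaying this response, and many ISGs have a basal level there without added interferon.

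The promoters that hold the ISRE core are shown because they carry the element that defines the response. The core searched was GAAA, then NN for any pair of bases, then GAAA, on both strands, in RefSeq windows from 250 bases before to 50 bases after each annotated start, build GRCm38.p6. All 9 genes matched a window, 11 windows in all. The core was present in 5 of the 11 windows, which belong to 5 of the 9 genes, against 1131 of 32851 windows in the table (3.44%). A match is a description of the letters and not of a bound site. The 250 bases before the start are printed 5′ to 3′ on the strand of the gene, with the ISRE core in capitals. They lie at chr10:128270248-128270497 (plus strand) for Stat2, chr4:156200819-156201068 (minus strand) for Isg15, chr19:34640639-34640888 (plus strand) for Ifit1, chr19:34583279-34583528 (plus strand) for Ifit3 and chr8:71537473-71537722 (minus strand) for Bst2.

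Stat2: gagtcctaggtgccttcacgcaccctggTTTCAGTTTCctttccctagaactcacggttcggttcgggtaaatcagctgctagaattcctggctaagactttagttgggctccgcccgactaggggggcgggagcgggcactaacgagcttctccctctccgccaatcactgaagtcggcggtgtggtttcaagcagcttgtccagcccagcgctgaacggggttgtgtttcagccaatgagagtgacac
Isg15: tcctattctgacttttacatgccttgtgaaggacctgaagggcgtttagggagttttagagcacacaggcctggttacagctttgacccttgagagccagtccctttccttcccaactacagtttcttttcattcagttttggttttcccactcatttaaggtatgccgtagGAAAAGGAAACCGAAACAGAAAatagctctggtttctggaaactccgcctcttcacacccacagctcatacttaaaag
Ifit1: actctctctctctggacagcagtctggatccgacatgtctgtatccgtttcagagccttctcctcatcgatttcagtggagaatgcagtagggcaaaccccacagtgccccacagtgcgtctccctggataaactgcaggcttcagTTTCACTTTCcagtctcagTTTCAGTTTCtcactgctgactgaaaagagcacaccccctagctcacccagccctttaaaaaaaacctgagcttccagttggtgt
Ifit3: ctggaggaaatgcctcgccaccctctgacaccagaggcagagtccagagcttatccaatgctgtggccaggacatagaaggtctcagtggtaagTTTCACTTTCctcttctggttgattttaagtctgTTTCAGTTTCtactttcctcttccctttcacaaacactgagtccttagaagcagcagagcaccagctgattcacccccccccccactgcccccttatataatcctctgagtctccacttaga
Bst2: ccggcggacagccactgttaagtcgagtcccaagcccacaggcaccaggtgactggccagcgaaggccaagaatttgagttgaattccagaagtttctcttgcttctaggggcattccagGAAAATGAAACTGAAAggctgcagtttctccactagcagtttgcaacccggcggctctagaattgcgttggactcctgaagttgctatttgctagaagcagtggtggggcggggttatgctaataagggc

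Ifit1 and Ifit3 each held a pair of separate matches, those of Ifit1 beginning 104 and 85 bases before the start and those of Ifit3 at 156 and 122 bases. Isg15 held 3 overlapping matches within one run, beginning 78, 72 and 66 bases before the start. Bst2 held 2 overlapping matches at 130 and 124 bases, and Stat2 held 1, at 222 bases. The core of the gamma-activated site (GAS), TTCNNNGAA, reads the same on both strands. It was present in 2 of the 11 windows, against 2726 of 32851 windows (8.3%). These belong to 2 of the 9 genes, Irf1 at 90 bases and Bst2 at 136 bases before the start. The Bst2 GAS match overlapped its first ISRE match. The windows of Irf7, Irf9 and Oasl2 held neither set of letters.

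**Figure D1:**
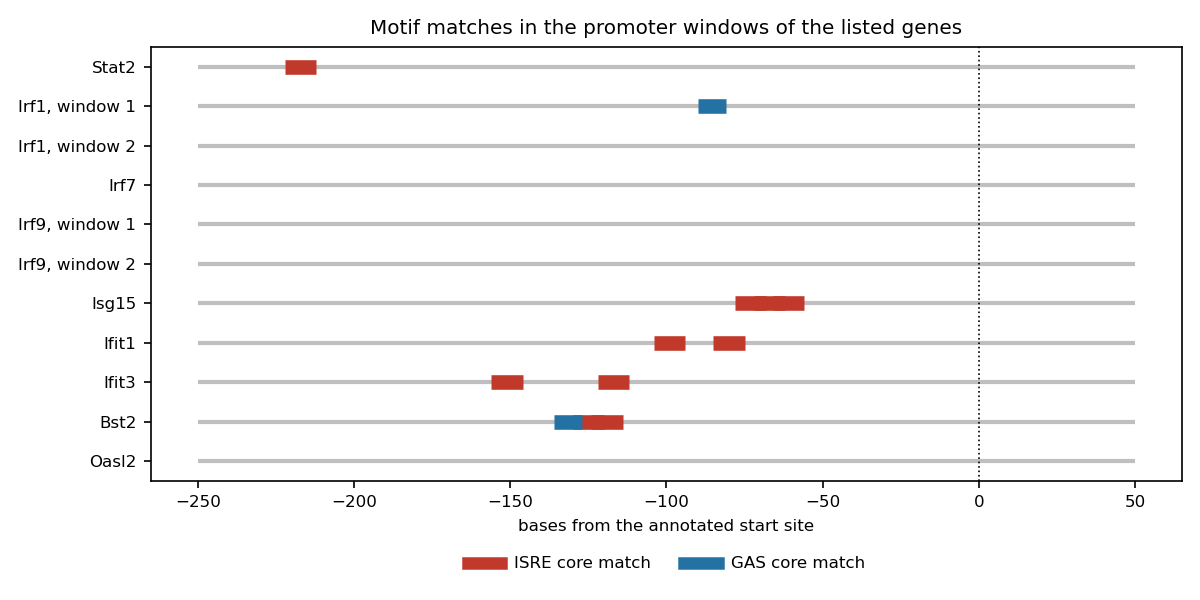
Positions of ISRE core (red) and GAS core (blue) matches in the promoter windows of the 9 genes, in bases from the annotated start site (dotted line). Matches lie between 222 and 66 bases before the start in 6 genes, with the ISRE core in 5 of them.

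Of the 9 genes, 4 were bright enough to be tested (Irf1, Irf9, Ifit3 and Bst2), the cut being the brightest 60% of genes, at a mean log2 intensity of 5.65. The brighter Stat2 probe set, at a mean of 5.64, lay just below that cut, followed by Irf7 at 5.54, Ifit1 at 4.33 and Oasl2 at 2.72. The probe set of Isg15, at 6.95, is annotated to Isg15 and Gm9706 together, so its values belong to both and it was not tested as a gene. The values of these untested members come from a second fit of all 45037 probe sets.

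No member was called in any of the 7 comparisons at an adjusted p under 0.05. Over both states, 0 of the 10 member probe sets had all rescue-labelled arrays below all KO-labelled ones (2.83% of all probe sets) or above them (3.11%). For the preshock response, the calls by limma numbered 193 of 10915 genes in KO-labelled cells (1.77%), 39 in the rescue-labelled line (0.357%) and 482 as the mean of both lines (4.42%). Between the lines it called 46 genes in unheated cells (0.421%), 37 in preshocked cells (0.339%) and 532 as the mean of both states (4.87%). For the difference between the responses of the lines it called 0 genes (0%), with 103 at an unadjusted p under 0.05 (0.944%). In the fit of all probe sets, percentages called were 0.06, 0.0244, 0.24, 0.00666, 0.0266, 0.04 and 0.204 in the 7 comparisons, in the order KO-labelled, rescue-labelled and mean preshock response, difference of responses, and line difference unheated, preshocked and mean. With 4 of the 9 genes tested, a count of 0 lies near these background shares. At an unadjusted p under 0.05 the only calls among the 4 tested members were for Ifit3, between the lines.

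Among the transcription factors, the dimmer Stat2 probe set was close to the floor. STAT2 is the partner of IRF9 in ISGF3. The brighter Stat2 probe set read 5.18, 5.57 and 5.40 (log2 normalised intensity) in the unheated KO-labelled arrays 6, 12 and 14, and 5.74, 5.0 and 5.83 in the preshocked arrays 5, 11 and 13. In the rescue-labelled line it read 6.15 and 6.79 in unheated arrays 32 and 44, and 4.52 and 6.18 in preshocked arrays 31 and 43. The unheated rescue-labelled arrays lay above all unheated KO-labelled arrays, as did 13.2% of all probe sets, and the preshocked groups overlapped. The unheated difference between lines was 1.08 ± 0.51 (log2, SE; limma unadjusted p = 0.0692, adjusted p = 0.669), and the preshock response of the rescue-labelled line was -1.12 ± 0.56 (limma adjusted p = 0.972).

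The dimmer Stat2 probe set read 4.37, 1.51 and 2.23 in unheated arrays 6, 12 and 14, and 2.61, 1.46 and 0.59 in preshocked arrays 5, 11 and 13. It read 4.13 and 2.98 in unheated arrays 32 and 44, and 4.18 and 4.91 in preshocked arrays 31 and 43, at deposited intensities of 1.36 to 34.8 over the 10 arrays. Preshocked rescue-labelled arrays lay above all preshocked KO-labelled arrays, as did 13.3% of probe sets (line difference 2.99 ± 0.92, limma adjusted p = 0.507). The probe sets of Stat2 disagreed: the preshocked difference between the lines was -0.17 ± 0.51 at the brighter one.

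Irf9, which gives ISGF3 its DNA-binding subunit, read 7.90, 6.85 and 7.12 in the unheated KO-labelled arrays 6, 12 and 14, and 8.18, 7.31 and 6.84 in the preshocked arrays 5, 11 and 13. In the rescue-labelled line it read 6.07 and 6.91 in unheated arrays 32 and 44, and 6.75 and 7.02 in preshocked arrays 31 and 43. Arrays 5 and 6 were the highest of the 10, and the lines overlapped with and without them. The preshock responses were 0.16 ± 0.40 in the KO-labelled and 0.39 ± 0.49 in the rescue-labelled line. The mean line difference, rescue minus KO, was -0.68 ± 0.32 (limma adjusted p = 0.222, 95% interval -1.40 to 0.046), and -0.36 without arrays 5 and 6.

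Irf1, a factor that acts on ISRE and related elements, had intensities of 441 to 866. It read 9.69, 9.06 and 8.92 in unheated arrays 6, 12 and 14, and 9.15, 9.14 and 9.05 in preshocked arrays 5, 11 and 13. In the rescue-labelled line it read 8.79 and 9.03 in unheated arrays 32 and 44, and 8.92 and 8.96 in preshocked arrays 31 and 43. Preshocked rescue-labelled arrays lay below all preshocked KO-labelled arrays, as did 12.4% of all probe sets, by -0.18 ± 0.22 (limma adjusted p = 0.763), though with arrays centred on their medians the difference was 0.287. The preshock response was -0.11 ± 0.20 in the KO-labelled line (95% interval -0.57 to 0.35) and 0.026 ± 0.246 in the rescue-labelled line (-0.54 to 0.59).

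Irf7, a factor that amplifies the interferon response once induced, read 6.79, 5.64 and 5.50 in unheated arrays 6, 12 and 14, and 7.29, 5.36 and 5.79 in preshocked arrays 5, 11 and 13. It read 4.64 and 5.67 in unheated arrays 32 and 44, and 3.04 and 5.72 in preshocked arrays 31 and 43. The highest pair was 5 and 6, and the pair 31 and 32 was the lowest. The mean line difference was -1.29 ± 0.64 (limma unadjusted p = 0.0801, adjusted p = 0.421), and the rescue-labelled preshock response was -0.77 ± 0.99. Leaving out 1 array at a time, that response ranged from -2.12 to 0.56, the upper end being without array 31.

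Among the effectors, Ifit3 had the smallest unadjusted p between the lines of the 4 tested members. It belongs to the IFIT family, whose proteins bind foreign RNA, and it is closely related to Ifit3b, so a contribution of that paralog to the probe set was not tested. Ifit3 read 7.21, 7.27 and 6.94 in unheated arrays 6, 12 and 14, and 6.48 and 6.07 in unheated arrays 32 and 44. These did not overlap, as was so for 13% of all probe sets in that direction. In preshocked cells it read 7.27, 6.67 and 6.22 in arrays 5, 11 and 13, and 5.86 and 6.46 in arrays 31 and 43, which overlapped. The line differences were -0.86 ± 0.32 in unheated cells (limma unadjusted p = 0.0251, adjusted p = 0.321; 12.9% of genes had an unadjusted p under 0.05), -0.56 ± 0.32 in preshocked cells and -0.71 ± 0.22 as the mean (unadjusted p = 0.0123, adjusted p = 0.101; 25.6% of genes). With the array pairs as a random block the mean difference had an adjusted p of 0.499. The preshock response was -0.42 ± 0.28 in the KO-labelled line (limma adjusted p = 0.702), lower in 2 of 3 pairs.

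Ifit1, the founding member of that family, was dim and the most variable between pairs. It read 7.14, 6.04 and 2.59 in unheated arrays 6, 12 and 14, and 6.69, 4.92 and 3.35 in preshocked arrays 5, 11 and 13. It read 2.30 and 3.18 in unheated arrays 32 and 44, and 2.86 and 4.21 in preshocked arrays 31 and 43, so the rescue-labelled arrays overlapped with arrays 13 and 14. The mean line difference was -1.98 ± 1.01 (limma unadjusted p = 0.0862, adjusted p = 0.432).

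The probe set shared by Isg15, which encodes a ubiquitin-like modifier, and Gm9706 read 8.23, 6.98 and 6.66 in unheated arrays 6, 12 and 14, and 8.55, 6.77 and 5.89 in preshocked arrays 5, 11 and 13. It read 6.04 and 6.85 in unheated arrays 32 and 44, and 7.10 and 6.42 in preshocked arrays 31 and 43. Beyond arrays 5 and 6 the values of both lines overlapped. Its mean line difference was -0.57 ± 0.57 (limma adjusted p = 0.684), and 0.031 without arrays 5 and 6.

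Bst2, or tetherin, which holds enveloped virus particles at the cell surface, read 7.63, 7.18 and 6.87 in unheated arrays 6, 12 and 14, and 8.41, 6.71 and 6.19 in preshocked arrays 5, 11 and 13. The rescue-labelled arrays spanned a narrow range, 6.91 and 7.19 in unheated arrays 32 and 44 and 7.21 and 7.19 in preshocked arrays 31 and 43. They lay inside the range of the KO-labelled arrays, with a mean line difference of -0.040 ± 0.396 (limma adjusted p = 0.961), 0.41 without arrays 5 and 6 (adjusted p = 0.175) and 0.26 with arrays centred on their medians. Within the KO-labelled line the pair differences were 0.78 for arrays 5 and 6, and below 0 for the others.

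Oasl2, a 2′-5′ oligoadenylate synthetase-like protein, was dim, at intensities of 0.899 to 29.2. It read 3.75, 2.97 and 2.62 in unheated arrays 6, 12 and 14, and 4.09, 2.99 and 1.21 in preshocked arrays 5, 11 and 13. It read 0.25 and 4.32 in unheated arrays 32 and 44, and 3.66 and 1.36 in preshocked arrays 31 and 43, so the pairs of the rescue-labelled line moved in opposite directions. Its preshock response in that line, 0.23 ± 1.46, cannot be told from 0 at this signal.

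**Figure D2:**
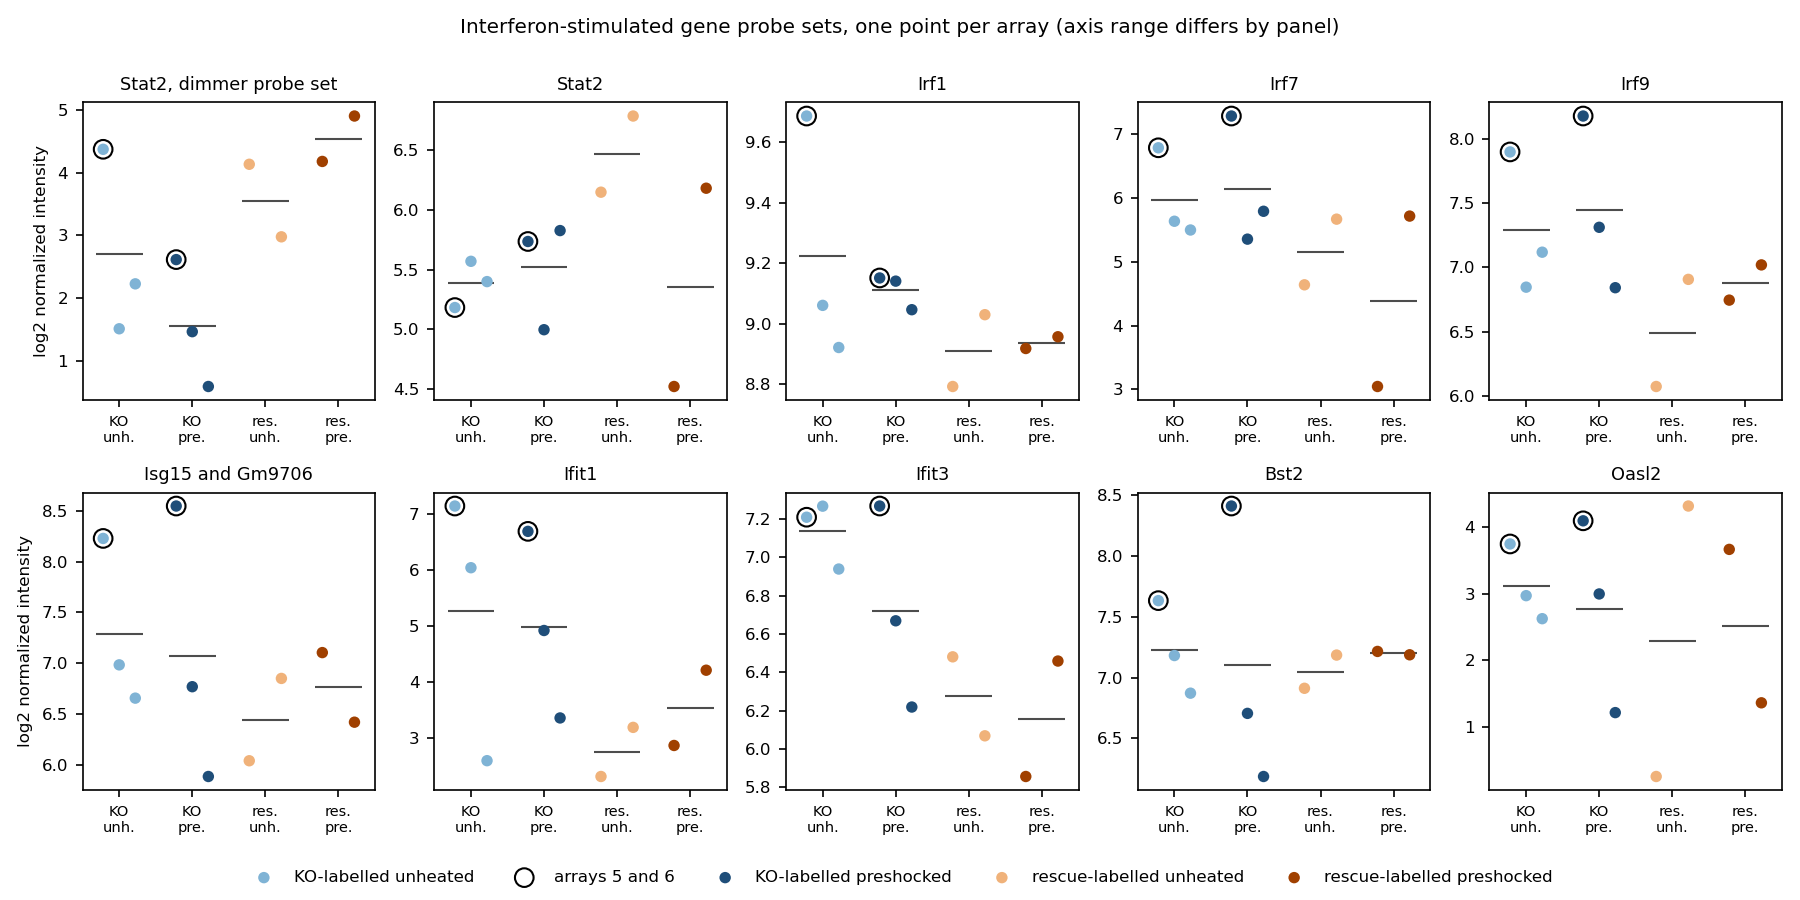
Log2 normalised intensity of the 10 member probe sets (1 panel each) in the 4 groups, with 1 point per array, a line at each group mean, and arrays 5 and 6 circled. Arrays 5 and 6 are the 2 highest of the 10 arrays for 6 probe sets, and the other KO-labelled arrays overlap with the rescue-labelled ones in most panels.

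**Figure D3:**
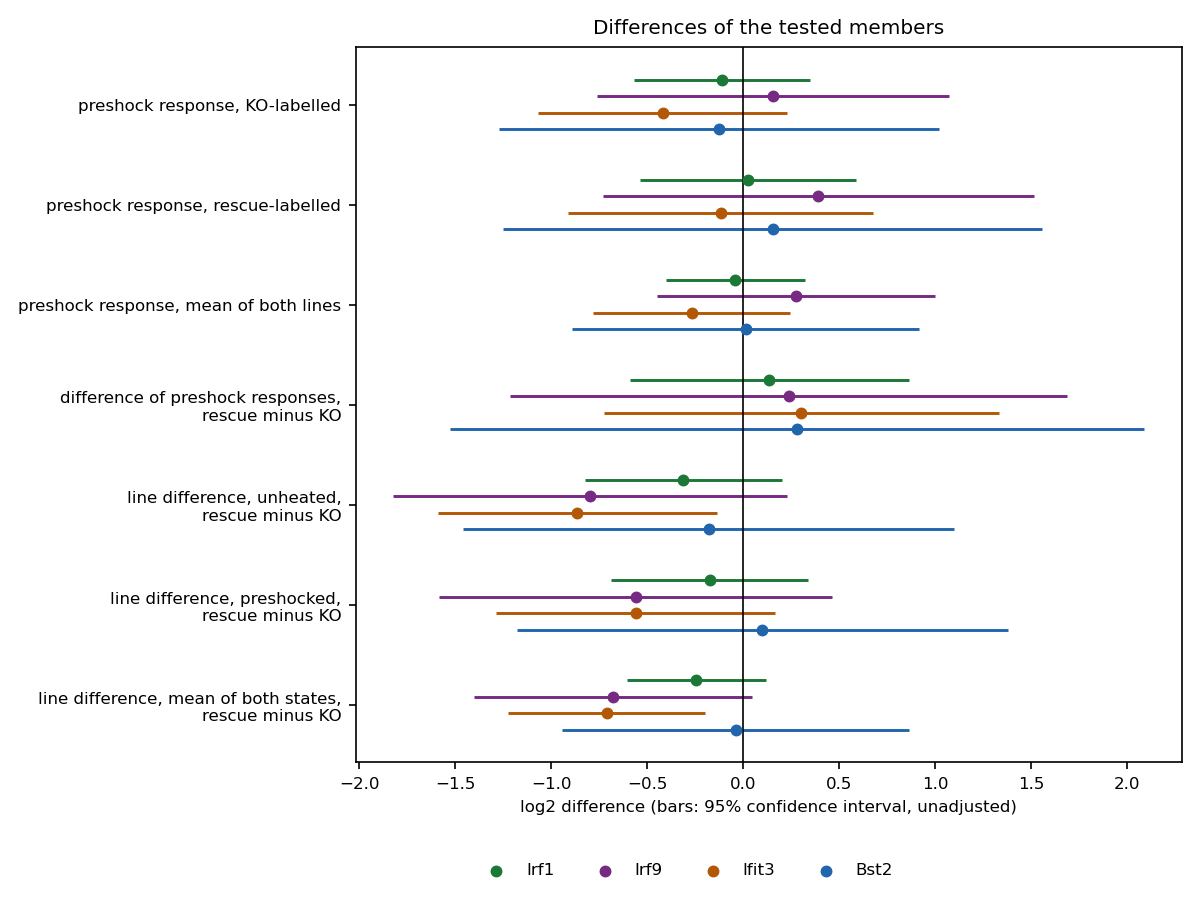
Log2 differences of the 4 tested members in the 7 comparisons, with 95% confidence intervals from limma, not adjusted. Ifit3 between the lines, unheated and as the mean, has the only intervals that leave out 0, and no adjusted p of a member is under 0.05.

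Within the KO-labelled line, most member probe sets read highest in arrays 5 and 6. Arrays 5 and 6 were both above the other 4 KO-labelled arrays for 8 of the 10 member probe sets, against 17% of all 45037 probe sets. They were above the 8 other arrays for 6 of the 10, which were those of Irf1, Irf7, Irf9, Isg15 with Gm9706, Ifit1 and Bst2, against 11.5% of all probe sets. Both counts are of quantile-normalised values. The members were chosen with earlier results of these data known, and all their values come from the same arrays. The counts are therefore a description of this pair and not a test. With arrays centred on their medians, Irf1 read 8.58 and 9.01 in arrays 5 and 6 and 9.08 in array 13, so it left both counts. Bst2 then read 7.25 in array 6 and 7.37 in array 44, so it left the count over the 8 other arrays. The shares of all probe sets with median centring are not given here, so the counts under that setting have no background to be set against. In quantile-normalised values, the mean of pair 5 and 6 exceeded that of the other KO-labelled pairs by 2.69 for Ifit1, 1.81 for Isg15 with Gm9706, 1.47 for both Irf7 and Oasl2, 1.28 for Bst2, 1.01 for Irf9, 0.46 for Ifit3 and 0.38 for Irf1. The dimmer Stat2 probe set exceeded by 2.05 and the brighter one by 0.011. An F test over the 3 KO-labelled pairs, with state in the fit, was added after these values were seen. Irf9 differed over the pairs (limma adjusted p = 0.0463), while the adjusted p was 0.0732 for Bst2, 0.229 for Irf1 and 0.280 for Ifit3. The same test called 27.9% of the genes tested, so a call in it is common. The 1 call among the 4 tested members lies near that share. For Ifit1 it gave an unadjusted p of 0.00328 and an adjusted p of 0.0971 among all probe sets, of which it called 0 (10242 unadjusted).

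Other measures moved with this pair. Median deposited intensities were 100.2 and 106.8 in arrays 5 and 6, and 50.5 to 53.2 in the rescue-labelled arrays. The marker sums given here are of deposited intensities and were not corrected for this difference. The summed intensities of epithelial markers (7 genes, 3 of them tested) were 784 to 1016 in arrays 5 and 6, up to 318 in the rescue-labelled arrays. Those of macrophage and leukocyte markers (11 genes, 5 tested) were 1539 to 1880 in arrays 5 and 6, and 1145 to 1277 in the rescue-labelled arrays. Endothelial markers (6 genes, 2 tested) summed to 359 to 394 in the pair and 229 to 279 in the rescue-labelled arrays. Plasmacytoid and other dendritic markers without Bst2 (5 genes, 0 tested) summed to 194 to 230 in the pair and 104 to 130 in the rescue-labelled arrays, and another preshocked KO-labelled array reached 235. Fibroblast markers summed to 97960 to 103800 in the pair, against 88090 to 102900 in the rescue-labelled arrays. The lowest sums among the other KO-labelled arrays were 224 for epithelial, 1047 for macrophage and leukocyte and 116 for endothelial markers. For dendritic and fibroblast markers they were 95.7 and 90950. No marker was listed at 0, and the lowest values were 0.960 for Tyrobp, 1.08 for Krt18, 1.09 for Lyz2 and 1.17 for Itgam. In pooled lysates, fewer cells of a type and less RNA per cell cannot be told apart. The part of these measures, and of the higher median intensity of arrays 5 and 6, in the member levels was not tested.

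**Figure D4:**
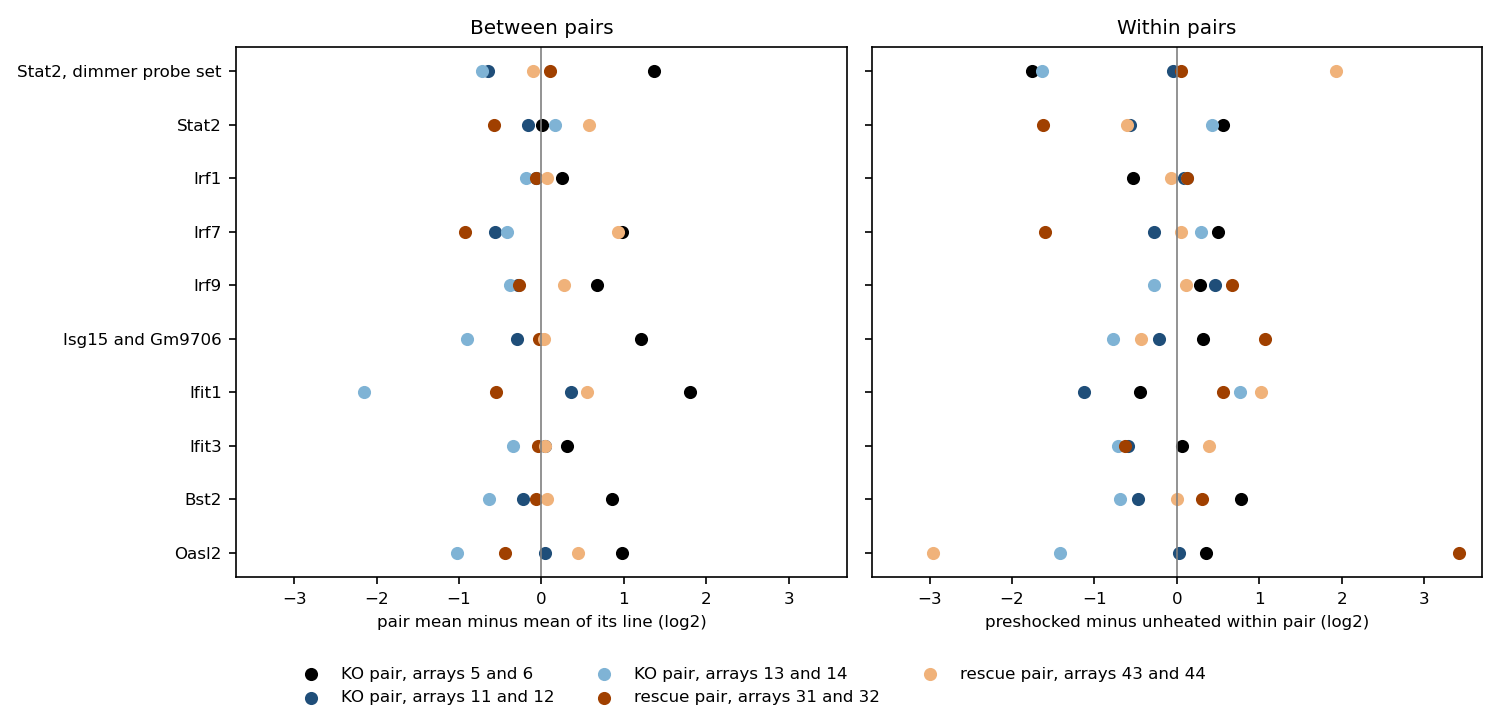
Left, the mean log2 level of each array pair minus the mean of its line, and right, preshocked minus unheated within each pair, for the 10 member probe sets; black marks arrays 5 and 6. The black points lie at the right of the left panel for 9 of 10 probe sets, and pairs of a line fall on both sides of 0 in the right panel for most members.

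The genes whose pattern over the 10 arrays was most like the mean standardised value of the 4 tested members were Lypla2 (Pearson r = 0.994), St6galnac6 (0.983), Slc29a4 (0.983), Tff1 (0.981) and Dnpep (0.976). These correlations describe 10 arrays that share the contrast of arrays 5 and 6 with the rest. Without that pair they were 0.970, 0.898, 0.906, 0.888 and 0.851. None of the 5 is in the interferon lists, and r passed 0.9 for 171 of 10910 genes and for 3 of 78 listed interferon genes.

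The rest of the pathway was read from lists of 152 genes; 131 had a probe set annotated to them alone, and 78 passed the brightness cut. In the KO-labelled preshock response 1 rose and 0 fell, in the rescue-labelled response 1 rose and 0 fell, and as the mean of both 1 rose and 2 fell. Of all genes tested, 1.77%, 0.357% and 4.42% were called in these comparisons. The list median for the mean response was -0.055, against -0.039 for all genes. Socs3, a feedback inhibitor of JAK kinases that many cytokines induce, was the 1 that rose. It read 9.09, 9.15 and 9.08 in unheated arrays 6, 12 and 14, and 10.66, 10.44 and 10.39 in preshocked arrays 5, 11 and 13. In the rescue-labelled line it read 8.66 and 8.24 in unheated arrays 32 and 44, and 10.28 and 9.92 in preshocked arrays 31 and 43. The groups did not overlap in either line. Its response was 1.39 ± 0.16 in the KO-labelled line (limma adjusted p = 0.00824), 1.65 ± 0.20 in the rescue-labelled line (0.0165) and 1.52 ± 0.13 as the mean (7.87e-04). The rescue-labelled call was lost without array 31, 32 or 44 (adjusted p up to 0.150). Both single-line calls were lost with arrays centred on their medians (0.132 and 0.283) or with no filter on dim genes (0.0547 and 0.0848), where the mean response kept its call.

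The 2 that fell were Irf2bp1, which encodes a corepressor partner of IRF2, and Ifit2, another member of the IFIT family. Ifit2 read 10.11, 10.15 and 10.13 in unheated arrays 6, 12 and 14 and 9.72, 9.75 and 9.67 in preshocked arrays 5, 11 and 13. It read 10.06 and 9.98 in unheated arrays 32 and 44 and 9.56 and 9.11 in preshocked arrays 31 and 43, below the unheated arrays in all 5 pairs. Its mean response was -0.55 ± 0.11 (limma adjusted p = 0.0303), and this call was lost on leaving out any array except 31 (up to 0.114) and without the pair 5 and 6 (0.0616). Irf2bp1 fell by -1.07 ± 0.23 (adjusted p = 0.0387), a call lost on leaving out any array except 5 (up to 0.149). With no filter on dim genes, the adjusted p was 0.120 for Ifit2 and 0.126 for Irf2bp1, and with median centring it was 0.508 for Ifit2.

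The pair numbers in the labels were taken to link the arrays, an assumption on which the block results rest. With the pairs as a block the mean preshock response had 6 listed genes higher and 10 lower, where 17.4% of all genes were called. Besides Socs3, Irf2bp1 and Ifit2 these were named after the values were seen. Higher were Cgas, the cytosolic DNA sensor (0.64, limma adjusted p = 0.0233), the feedback inhibitor Cish (0.51, 0.0230), Isg20, Ifngr2 and H2-D1. Lower were Mavs, the adaptor of RNA sensing (-0.43, 0.0166), Irf3 (-0.32, 0.0273), the interferon receptor chain Ifnar1 (-0.32, 0.0341), Irf2, Samd9l, Ptpn2, Socs1 and Daxx. In the KO-labelled response the block gave 2 higher (Socs3 and Isg20) and 2 lower (Irf2bp1 and Ifnar1), where it called 9.16% of genes. The 4 tested members had adjusted p-values of 0.272 to 0.977 for the mean response with the block.

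By role, 0 genes were called in any of the 7 comparisons among the 1 ligand, 8 receptors and kinases, 9 nucleic acid sensors, 19 other induced genes, 3 interferon-induced GTPases and 8 genes of MHC class I presentation that were tested. Their median line differences, rescue minus KO as the mean of both states, ran from -0.59 for the GTPases and -0.20 for receptors and kinases to 0.063 for MHC class I presentation, with 1.22 for Ifnz, the ligand.

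Between the lines, 0 of 78 listed genes were higher and 2 lower in the rescue-labelled arrays as the mean of both states, where 4.87% of all genes were called. The list median was -0.082, against -0.022 for all genes. Irf5, a factor that drives inflammatory cytokine genes, read 8.19, 8.27 and 8.08 in unheated arrays 6, 12 and 14, and 7.97, 8.48 and 7.51 in preshocked arrays 5, 11 and 13. It read 7.19 and 7.25 in unheated arrays 32 and 44, and 7.03 and 6.93 in preshocked arrays 31 and 43, so every rescue-labelled array was below every KO-labelled one, as for 2.83% of all probe sets. The difference was -0.98 ± 0.18 (limma adjusted p = 0.0219), and 0.211 with the random pair block. The call was also lost without array 12, 31, 32, 43 or 44 (up to 0.0928). Samhd1, which degrades deoxynucleotides, differed by -0.51 ± 0.11 (limma adjusted p = 0.0411). That call was lost with the block (0.220), on leaving out any array, and with arrays centred on their medians, where the difference was 0.011.

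Without arrays 5 and 6, 6 listed genes were higher and 1 lower in the rescue-labelled line, where 6.02% of all genes were called. The lower one was Irf5 (-1.04, limma adjusted p = 0.0476). The higher ones, named after their values were seen, were Ifitm1 (2.13, 0.0252) and Ifitm3 (1.02, 0.00626), which hinder virus entry at membranes, Lgals3bp (1.46, 0.0191), Ifi27 (0.86, 0.0335), Parp12 (0.81, 0.0262) and Pias3 (0.55, 0.0324), an inhibitor of STAT3. With all 10 arrays their adjusted p-values were 0.0883, 0.322, 0.437, 0.746, 0.136 and 0.312. Ifitm3 read 13.55, 12.19 and 12.31 in unheated arrays 6, 12 and 14, and 13.38, 12.08 and 12.24 in preshocked arrays 5, 11 and 13. In the rescue-labelled arrays it read 13.24 and 13.22 unheated and 13.14 and 13.16 preshocked. Ifitm3 was thus higher in the rescue-labelled arrays than in arrays 11 to 14, and below arrays 5 and 6. Without the pair, the 4 tested members had mean line differences of -0.12 for Irf1, -0.36 for Irf9, -0.59 for Ifit3 and 0.41 for Bst2, with adjusted p-values of 0.506, 0.357, 0.142 and 0.175.

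**Figure D5:**
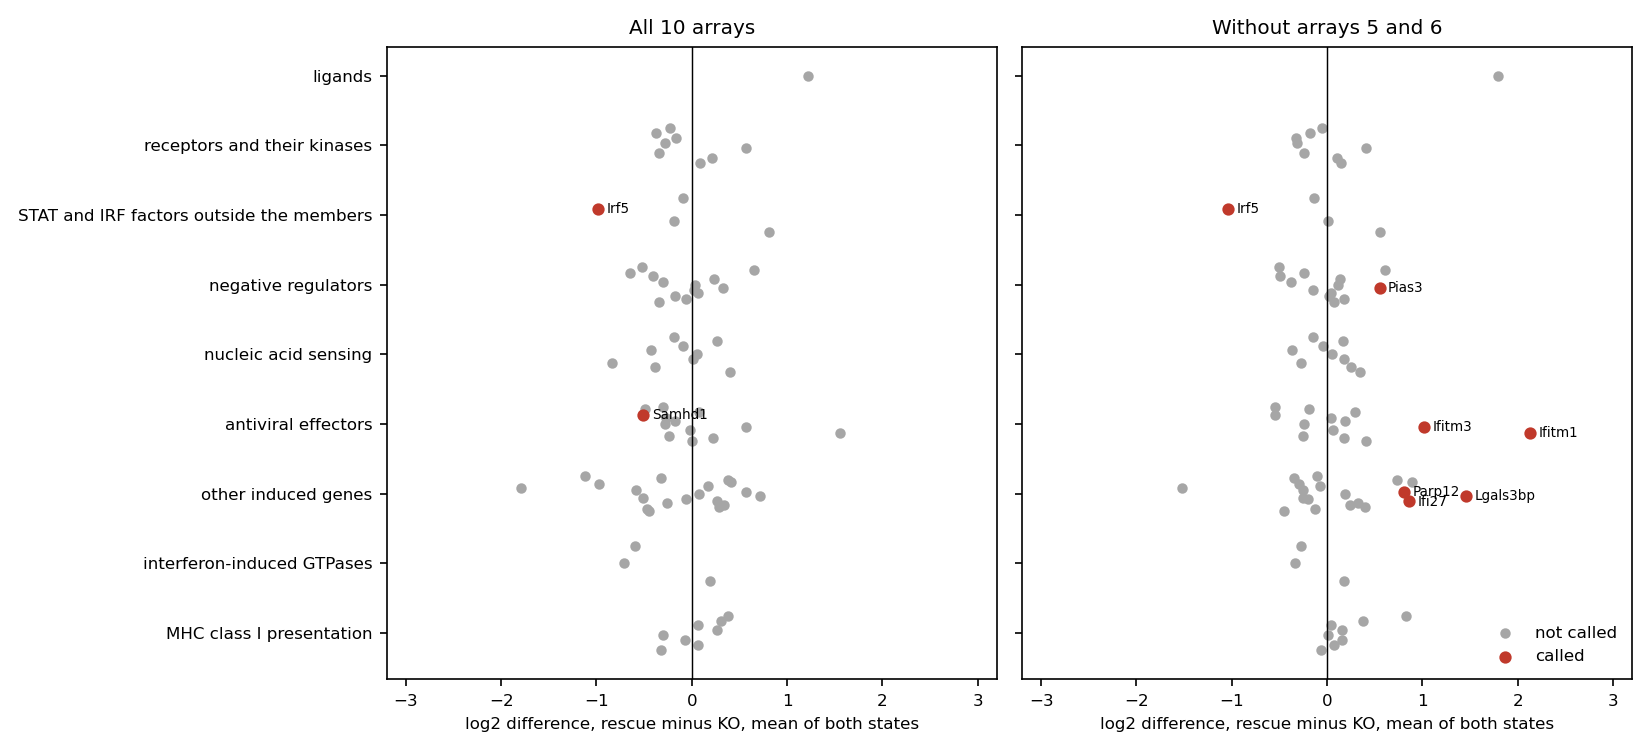
Log2 line difference, rescue minus KO, mean of both states, of the 78 tested interferon genes outside the members, by role, with all 10 arrays (left) and without arrays 5 and 6 (right). Red marks genes called at an adjusted p under 0.05, 2 on the left (both lower in the rescue-labelled line) and 7 on the right (6 of them higher).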

How the data were processed

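Each of the 10 deposited columns gives the linear intensity of every probe set on 1 array, as summarised by the authors with software not named in the labels. The 2% trimmed mean was 500.003 to 500.004 in every array, so the deposited intensity values were scaled by the authors. Values below 1 (4935) were set to 1, log2 was taken, and the 45037 non-control probe sets (64 controls left out) were quantile normalised. Of these, 34945 have 1 symbol in the platform annotation, 932 several and 9160 none. The brightest probe set with 1 symbol stood for each of 18193 genes, and the 60% with the highest mean (10915) were tested.

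limma 3.58.1 (R 4.3.3, statmod 1.5.0) fitted 1 mean per group over 10 arrays; p-values were adjusted by Benjamini-Hochberg over all genes tested and called under 0.05. All probe sets were also fitted together. SE follows differences, and SD group means. The number of arrays limits the precision. The fit was tested on simulated data. The members and gene lists were chosen with earlier results of these data known, and the F test over pairs after the values were seen. Named genes were all members, up to 3 called genes per list and comparison, the targeted genes, and the 5 genes most correlated with the tested members; others are said to be named after their values were seen. Lists were ligands, receptors and kinases, STAT and IRF factors, negative regulators, nucleic acid sensing, antiviral effectors, other induced genes, GTPases and MHC class I presentation.

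Titles number the arrays in adjoining pairs. The numbers were taken to pair the arrays, which the labels do not state. Deviations from group means correlated within pairs at 0.721, 0.376, 0.552, 0.370 and 0.370. With 2 arrays per group, the deviations in the rescue-labelled line mirror each other, so its pairs give the same value, 0.370, by construction. Correlations of arrays that are not paired are not given here, so these values cannot decide whether the pairing is right. The block was fixed for comparisons within a line and random (correlation 0.716) between lines. Alternatives were other normalisations, a floor of 16, no filter, all probe sets, trend and robust variance, the block, leaving out arrays 5 and 6, and leaving out each array.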

Additional observations from a re-analysis of the deposited data

Results flagged for a closer look

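The dimmer Stat2 probe set was lower after the preshock in all 3 KO-labelled pairs and higher in both rescue-labelled pairs. In the KO-labelled line it changed by -1.76 (arrays 5 and 6), -0.046 (11 and 12) and -1.64 (13 and 14). In the rescue-labelled line it changed by 0.045 (31 and 32) and 1.93 (43 and 44). Arrays 11 and 12, and 31 and 32, thus hardly differed, at intensities close to the floor. The share of all probe sets with this sign pattern is not given here. The difference of the responses, rescue minus KO, was 2.14 (log2), with a limma unadjusted p of 0.142 and an adjusted p of 1 among all probe sets. With values below 16 set to 16 it was 0.58. At the brighter Stat2 probe set the same difference was -1.25 (unadjusted p = 0.124).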

How the results depend on the processing

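The count of members called was 0 in all 7 comparisons under each alternative run, with a smallest adjusted p of 0.0652 (Ifit3, mean line difference, without array 13). Of 1176 member values under alternatives, 1112 kept their direction or stayed within the spread, 21 of untested probe sets moved, and 43 of tested members changed sign. Sign changes of untested probe sets were not counted as such, though they occurred. Leaving out 1 array at a time, the KO-labelled response of Ifit1 ranged from -1.6 to 0.684. The rescue-labelled response of Oasl2 ranged from -1.79 to 2.26. The causes were not tested. With arrays centred on their medians, the median of all genes shifted to 0.50, 0.42 and 0.46 in the unheated, preshocked and mean line differences, where Irf1 was 0.261, 0.287 and 0.274, and Bst2 was 0.133 unheated and 0.259 as the mean. The same setting gave a rescue-labelled response of -0.0707 for Irf1 and a mean response of -0.0251 for Bst2. Deposited scaling gave -0.0825 and -0.0735 for these, and -0.0837 for the preshocked line difference of Bst2. Without arrays 5 and 6, Irf1 had responses of 0.105 (KO-labelled) and 0.0663 (mean) and a difference of responses of -0.0779, and Bst2 had a mean response of -0.226 and line differences of 0.0232 unheated and 0.411 as the mean.

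Leaving out 1 array at a time, Irf1 ranged from -0.259 to 0.124 in the KO-labelled, -0.0925 to 0.145 in the rescue-labelled and -0.116 to 0.075 in the mean response, and from -0.0971 to 0.286 in the difference of responses. Irf9 ranged from -0.216 to 0.473 in the KO-labelled response, -0.0242 to 0.793 in the rescue-labelled response and -0.178 to 0.64 in their difference, and Ifit3 from -0.413 to 0.183 in the rescue-labelled response. Bst2 ranged from -0.802 to 0.329 in the KO-labelled and -0.323 to 0.241 in the mean response, and from -0.176 to 0.959 in the difference of responses. Its line differences ranged from -0.354 to 0.0226 unheated, -0.356 to 0.774 preshocked and -0.268 to 0.295 as the mean.

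Counts of all genes called, 193, 39, 482, 0, 46, 37 and 532 in the order of the report, ranged over the alternatives from 26 to 1000, 7 to 166, 108 to 1902, 0 to 3, 5 to 91, 0 to 60 and 25 to 727. The replicate block, which gave 1000, 166, 1902, 0, 22, 16 and 25, changed no call of a member. Irf5 was not called with median centring (adjusted p = 0.0984) or no filter (0.0758), nor Samhd1 with deposited scaling (0.0651) or no filter (0.127). With 2 or 3 arrays per group and 5 of the 9 genes dim or on a shared probe set, small changes of the members were not detectable here.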
